A study of Mus musculus with 12 samples.

Results

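Expression of 41 interferon-stimulated genes was examined in 12 YUMM1.7 melanoma tumors. The genes were taken by symbol from a list of known interferon targets. All 41 were among the 23940 genes of the deposited expression table, and all 41 passed the filter on low values (a mean of at least 1 FPKM), which 12117 genes passed. FPKM counts sequenced fragments relative to transcript length and to the size of the library, so levels can be compared between genes. YUMM1.7 is a mouse melanoma line that carries an activated Braf allele and lacks Cdkn2a. The tumors fell into 4 groups of 3: PD-L2-overexpressing tumors under BRAF inhibitor (BRAFi), PD-L2-overexpressing tumors under vehicle (DMSO), control tumors under BRAFi, and control tumors under vehicle. The sample labels give NSG mice as hosts and the series design gives NOD/SCID mice; both strains lack T and B lymphocytes and retain macrophages. The sources used here do not name the inhibitor, its dose or its duration, the ages of the mice, or whether the PD-L2 line is 1 clone. The design text calls the BRAFi tumors resistant, while the labels state only that they were treated. The labels number separate tumors in each group but do not say whether they grew in separate animals, so p-values measure the spread between these tumors.

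Interferon-stimulated genes are the transcriptional output of interferon signaling. Type I interferons bind the receptor IFNAR1/IFNAR2, and the kinases JAK1 and TYK2 then act on STAT2, which with IRF9 is part of the complex ISGF3 that binds interferon-stimulated response elements (ISRE). Interferon gamma acts through IFNGR1/IFNGR2 on gamma-activated sites (GAS), and IRF1 is one of its direct targets. The induced proteins sense foreign nucleic acid, block viral replication, modify other proteins with ISG15, or feed back on the signal, and in tumors they can be made both by the cancer cells and by infiltrating host cells such as macrophages.

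The promoters of 3 members, Isg15, Ifit1 and Irf1, picked by name, are shown. Sequences are RefSeq promoters on GRCm38.p6, from 250 bases before to 50 bases after the start site, 5′ to 3′ on the gene's strand, and capitals mark matches to the ISRE core TTTCNNTTTC or the GAS core TTCNNNGAA on either strand. Isg15 encodes the ubiquitin-like modifier ISG15, Ifit1 encodes a protein that binds foreign RNA and restricts its translation, and Irf1 encodes a transcription factor.
Isg15 (chr4:156200769-156201068, minus strand): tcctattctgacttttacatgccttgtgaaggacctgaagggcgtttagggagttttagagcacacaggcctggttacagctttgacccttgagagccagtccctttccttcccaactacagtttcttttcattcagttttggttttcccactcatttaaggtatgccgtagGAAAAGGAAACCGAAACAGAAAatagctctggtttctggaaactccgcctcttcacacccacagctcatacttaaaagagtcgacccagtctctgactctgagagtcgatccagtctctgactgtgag
Ifit1 (chr19:34640639-34640938, plus strand): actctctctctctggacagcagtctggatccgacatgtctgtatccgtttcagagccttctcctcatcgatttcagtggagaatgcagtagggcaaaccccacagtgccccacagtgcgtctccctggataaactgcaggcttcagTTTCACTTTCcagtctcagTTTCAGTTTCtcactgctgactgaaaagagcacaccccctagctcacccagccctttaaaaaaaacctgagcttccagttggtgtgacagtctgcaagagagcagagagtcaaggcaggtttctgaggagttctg
Irf1 (chr11:53769764-53770063, plus strand): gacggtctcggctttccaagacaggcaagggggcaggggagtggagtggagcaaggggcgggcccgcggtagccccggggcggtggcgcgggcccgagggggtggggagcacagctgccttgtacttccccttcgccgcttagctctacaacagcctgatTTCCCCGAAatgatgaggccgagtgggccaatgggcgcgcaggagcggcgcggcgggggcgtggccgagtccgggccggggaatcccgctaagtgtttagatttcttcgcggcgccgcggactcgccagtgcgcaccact
The Isg15 promoter held 3 overlapping ISRE cores, beginning 78, 72 and 66 bases before the start site. Ifit1 held 2, at 104 and 85 bases before it, and neither gene's window held a GAS core. The Irf1 window shown held 1 GAS core at 90 bases before the start site and no ISRE core. Another RefSeq promoter of Irf1 (chr11:53770223-53770522, plus strand), not shown, held neither core. Of the 41 members, 31 had a RefSeq promoter in this set. An ISRE core was present in 17 of those 31 (54.8%), against 3.99% of 27025 genes with a promoter, and a GAS core in 9 of 31 (29.0%), against 9.55%. The members were taken from a list of known interferon targets, so these higher shares describe the list and say nothing about these tumors. A match is a description of letters, not a binding site.

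The PD-L2 gene Pdcd1lg2 followed the labels: it reached 176, 20.8 and 171 FPKM in PD-L2 tumors under BRAFi and 41.3, 58.2 and 114 FPKM in those under vehicle, against 0.898, 3.54 and 0.863 FPKM in control BRAFi tumors and 0.164, 0.133 and 0.278 FPKM in control vehicle tumors. Read depth is unknown; FPKM sums per library were 499845 to 648254, with 16269 to 17469 genes above 0. PD-L2 BRAFi tumor 2 stood apart, with 21.9% of its FPKM sum in small RNA genes against 2.94 to 7.63% in the other libraries. The pigment-cell markers Dct, Mlana and Tyrp1 were at or near 0 in every library and Mitf was at 2.32 to 5.16 FPKM, so the defining pigment genes of the labelled melanoma were largely absent. Markers of T, B and NK cells summed to 0.951 to 6.03 FPKM over 11 genes, and Cd3g was listed at 0 in all 12 libraries.

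Averaged over the 12 tumors, the members ranged from 2.48 FPKM for Mx2 to 180 FPKM for Bst2. The most abundant 4 (named after their values were seen) were Bst2, which tethers budding virions at the cell surface, Ifi27l2a, a small mitochondrial protein gene, at 172 FPKM, Isg15 at 79.8 FPKM, and Irf7, the transcription factor that amplifies type I interferon production, at 66.3 FPKM. Summed over the 41 members, expression was 1050, 430 and 265 FPKM in tumors 1, 2 and 3 of the PD-L2 BRAFi group, and 962, 785 and 473 FPKM in the PD-L2 vehicle group. It was 2310, 384 and 960 FPKM in control BRAFi tumors and 1990, 1240 and 1530 FPKM in control vehicle tumors. The 3 control vehicle tumors thus lay above the 3 PD-L2 vehicle tumors, while the BRAFi groups overlapped and each spanned a wide range.

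**Figure D1:**
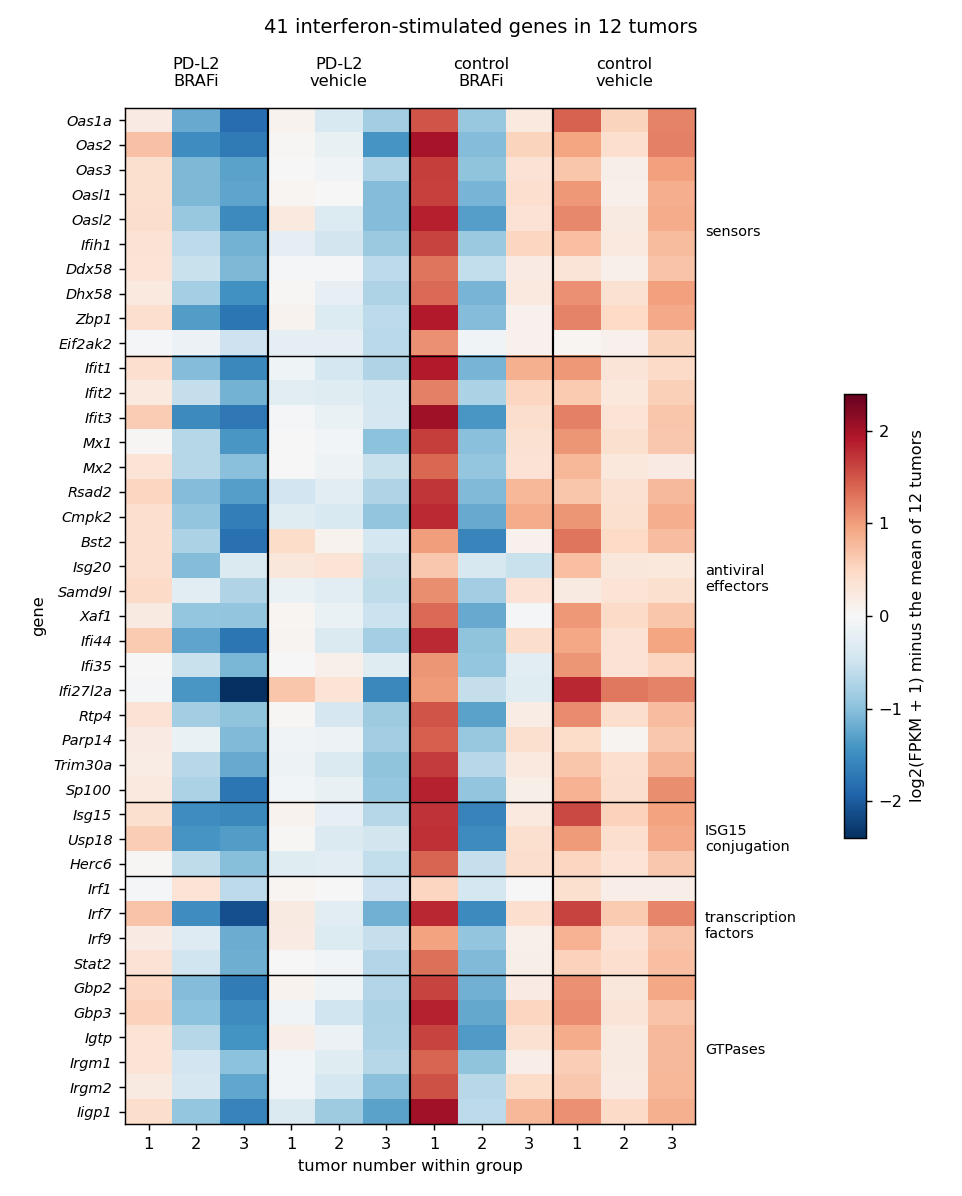
Each row is 1 of the 41 genes, grouped by role, and each column 1 tumor; color gives log2(FPKM + 1) minus the gene's mean over the 12 tumors. Control BRAFi tumor 1 is red and control BRAFi tumor 2 and PD-L2 BRAFi tumor 3 are blue across nearly all genes, and the PD-L2 vehicle columns are bluer than the control vehicle columns.

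The members varied as a block from tumor to tumor, also within groups. The median SD within groups on the log2(FPKM + 1) scale was 0.85 for the members and 0.206 for all tested genes, and every one of the 41 lay above the all-gene median, at the 80.7th percentile or higher. A single component accounted for 94.7% of the members' variance around their group means, against 30.8% for all tested genes. The spread was not even between treatments: the members' median SD was 1.11 in the BRAFi groups and 0.363 in the vehicle groups. No all-gene SD by treatment stands beside these values, so they do not tell whether other genes also spread more under BRAFi.

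The order of the tumors was shared by nearly all members in both BRAFi groups. In control BRAFi tumors, 40 of 41 members followed the order tumor 1, then 3, then 2, an order that 21.3% of all genes had; the exception was Isg20. In PD-L2 BRAFi tumors, 38 of 41 followed the order 1, 2, 3, against 12.4% of all genes. The exceptions there were Isg20 and Usp18 (1, 3, 2) and Irf1, which was highest in tumor 2. In PD-L2 vehicle tumors, 36 of 41 followed the order 1, 2, 3 (21.7% of all genes) and 5 the order 2, 1, 3 (17.2%). Control vehicle tumors had no single order. There 22 members followed 1, 3, 2 (13.8% of all genes) and 13 followed 3, 1, 2 (12.8%). Another 4 followed 1, 2, 3 (22.1%) and 2 followed 3, 2, 1 (23.2%). Over the 12 tumors, 38 members were highest in control BRAFi tumor 1, which was the highest library for 8.3% of all genes, and 34 were lowest in PD-L2 BRAFi tumor 3, which was the lowest for 14.5%. Control BRAFi tumor 1 was also the library with the most Sox10, a neural crest transcription factor, at 24.9 FPKM against 0.0307 to 6.66 FPKM elsewhere. Its dendritic cell marker sum over 7 genes was 17.2 FPKM, close to the 16.7 FPKM of control BRAFi tumor 3. The other libraries had 3.6 to 9.59 FPKM. Itgax alone gave 13.7 and 12.5 FPKM of the sums in control BRAFi tumors 1 and 3. It was the only 1 of the 7 markers to reach the filter, so these sums mostly describe a single gene. The part of Sox10 or of these markers in the result was not tested.

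The size of these swings differed between members. The ratio of the highest to the lowest of the 3 control BRAFi tumors had a median of 7.53 and ran from 1.95 for Irf1 to 12.8 for Cmpk2, a mitochondrial nucleotide kinase. In PD-L2 BRAFi tumors the median ratio was 4.26, from 1.43 for Eif2ak2, the kinase PKR that senses double-stranded RNA, to 12.1 for Oas2, which makes 2′-5′ oligoadenylates that activate RNase L. In the vehicle groups the median ratios were smaller, at 1.81 in PD-L2 and 1.64 in control tumors. The ratios ran from 1.14 to 4.66, the highest for Ifi27l2a, in PD-L2 vehicle tumors, and from 1.14 to 2.07 in control vehicle tumors. Over all 12 tumors the ratio ran from 2.29 for Irf1 to 31.3 for Oas2, with a median of 10.6. Oas2 had 7.60, 0.873 and 0.627 FPKM in PD-L2 BRAFi tumors, 4.35, 3.64 and 0.965 FPKM in PD-L2 tumors under vehicle, 19.6, 1.56 and 6.63 FPKM in control BRAFi tumors, and 9.10, 5.93 and 11.2 FPKM in control vehicle tumors. Oas2 and Cmpk2 are named here after their values were seen.

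**Figure D2:**
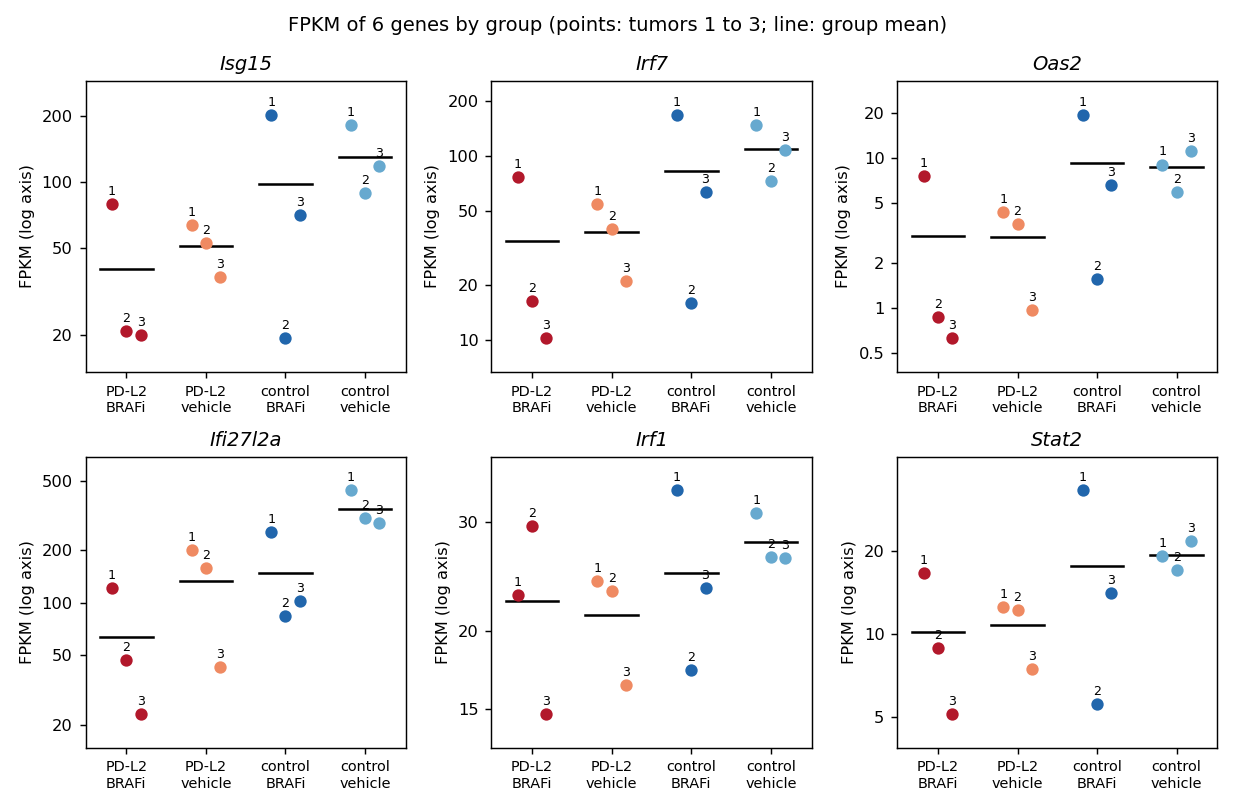
FPKM on a log axis for 6 members in the 4 groups; points are tumors numbered 1 to 3 and lines are group means. Isg15 spans 20.1 to 79.5 FPKM in PD-L2 BRAFi tumors and 19.3 to 204 FPKM in control BRAFi tumors, whereas Irf1 spans a narrower range in every group.

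PD-L2 overexpression was compared with control under vehicle first, where the tumors of a group were most alike. All 41 members averaged lower in PD-L2 than in control tumors, with a median log2 fold change of -1.02 and a range of -1.63 to -0.39, while the median of all tested genes was 0.01 and 48.7% of them were below 0. For 39 of 41 members the 3 PD-L2 vehicle tumors all lay below the 3 control vehicle tumors; 10.5% of all genes separated in this direction. The exceptions were Oasl2 and Isg20. Because the members varied together from tumor to tumor, counts of members, here and below, are not counts of independent results. No member passed the test across all genes (limma, adjusted p 0.05), nor did any other gene in this comparison (0% called), and 3 members reached an unadjusted p under 0.05, against 10.9% of all genes. The smallest member adjusted p in limma was 0.417, for Iigp1.

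The GTPases, some of which attack the vacuoles of intracellular pathogens, gave a median log2 fold change of -1.02 over 6 genes. Iigp1, an immunity-related GTPase, had 11.7, 8.01 and 5.69 FPKM in PD-L2 vehicle tumors, against 33.5, 21.3 and 28.2 FPKM in control vehicle tumors. The highest PD-L2 tumor lay well under the lowest control tumor, and the log2 fold change was -1.63 ± 0.63 (SE). Irgm2 and Irgm1, of the same family, gave -1.04 ± 0.52 and -0.87 ± 0.51.

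Among the 10 sensors of RNA and DNA the median log2 fold change was -1.11. Oas1a, an oligoadenylate synthetase, had 6.31, 4.37 and 2.86 FPKM in PD-L2 vehicle tumors, against 17.3, 8.93 and 14.7 FPKM in control vehicle tumors. These groups did not overlap, and the log2 fold change was -1.41 ± 0.62 (limma, adjusted p = 0.442). Eif2ak2 and Ifih1, which encodes the long double-stranded RNA sensor MDA5, gave -0.59 ± 0.28 and -1.10 ± 0.55.

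The 18 antiviral effectors had a median log2 fold change of -0.98. Ifi27l2a had 199, 158 and 42.6 FPKM in PD-L2 vehicle tumors, against 440, 304 and 287 FPKM in control vehicle tumors. PD-L2 vehicle tumor 3 was far below the other two of its group, and the log2 fold change of -1.60 ± 0.68 (limma, adjusted p = 0.428) became -0.93 without that tumor. Ifit1 had 20.7, 16.4 and 13.2 FPKM in PD-L2 vehicle tumors, against 47.2, 28.1 and 31.1 FPKM in control vehicle tumors, with no overlap and a log2 fold change of -1.02 ± 0.68. Trim30a, of the tripartite motif family, and the receptor transporter gene Rtp4 gave -1.11 ± 0.52 and -1.17 ± 0.60.

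The ISG15 conjugation genes are Isg15, Herc6, an ISG15 ligase in mice, and Usp18, which removes ISG15 and restrains the type I receptor. Isg15 had 63.8, 52.7 and 37.0 FPKM in PD-L2 vehicle tumors, against 182, 88.9 and 119 FPKM in control vehicle tumors. Herc6 had 2.92, 2.98 and 2.20 FPKM in PD-L2 vehicle tumors, against 5.91, 5.06 and 6.56 FPKM in control vehicle tumors. Both genes separated the groups, with log2 fold changes of -1.30 ± 0.75 and -0.89 ± 0.41 (limma, adjusted p = 0.551 and 0.464), and Usp18 gave -1.03 ± 0.73.

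The 4 transcription factors spread widely, and Irf1 had the smallest difference of the 41. Irf7 had 55.0, 39.9 and 20.9 FPKM in PD-L2 vehicle tumors, against 148, 73.4 and 108 FPKM in control vehicle tumors. Irf9 and Stat2, which are part of ISGF3, averaged 14.6 ± 4.29 and 10.8 ± 2.84 FPKM in PD-L2 vehicle tumors, against 26.8 ± 4.61 and 19.4 ± 2.40 FPKM in control vehicle tumors (SD, n = 3 each). Irf1 had 24.1, 23.2 and 16.4 FPKM in PD-L2 vehicle tumors, against 31.0, 26.3 and 26.2 FPKM in control vehicle tumors. All 4 genes separated the groups. Their log2 fold changes were -1.53 ± 0.85 for Irf7, -0.86 ± 0.46 for Irf9, -0.81 ± 0.53 for Stat2 and -0.39 ± 0.27 for Irf1 (limma, adjusted p = 0.530, 0.515, 0.589 and 0.621).

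The standard errors above pool the spread of all 4 groups, and the spread of these genes was larger under BRAFi. When limma was fitted to the 6 vehicle tumors only, 39 of 41 members (all but Isg20 and Irf1) reached an unadjusted p under 0.05. Each was lower in PD-L2 tumors, and 7.87% of all genes reached it in that direction. The members varied together, so they are not 39 independent results. After adjustment over all genes their p-values were 0.110 to 0.557, and none passed; over the 23 alternatives the smallest member adjusted p was 0.110 to 0.720.

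**Figure D3:**
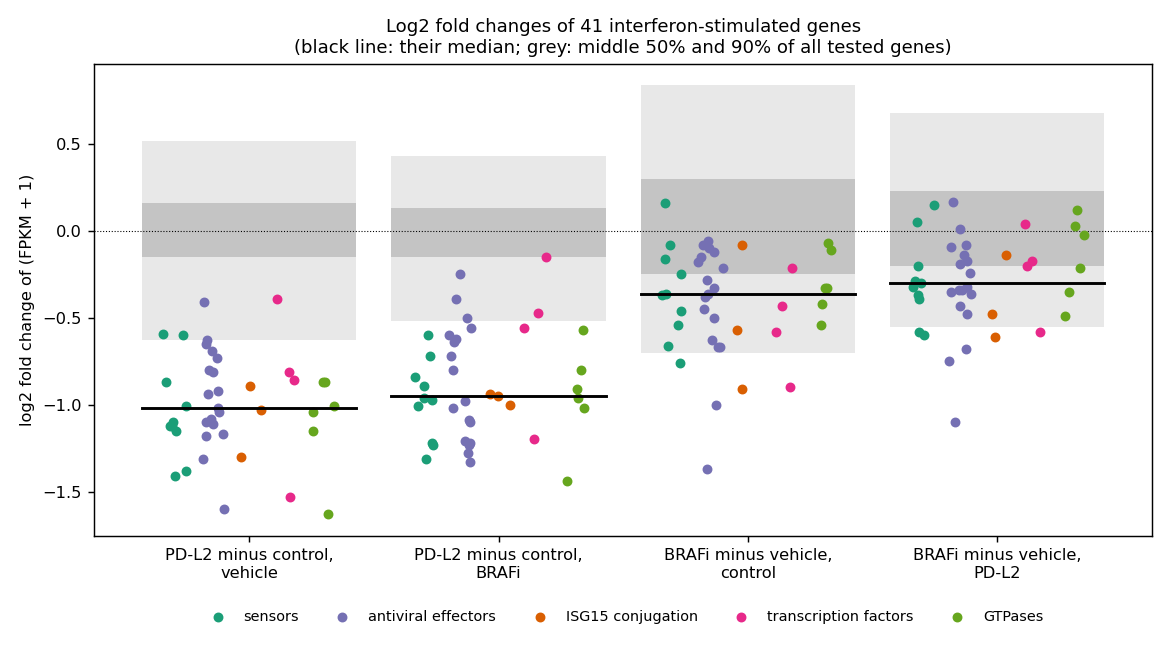
Points are the 41 genes, colored by role, and the y axis is the log2 fold change of (FPKM + 1) in each comparison; black lines are member medians and grey bands hold the middle 50% and 90% of all tested genes. Both PD-L2 comparisons center near -1 (medians -1.02 and -0.95), and both BRAFi comparisons center near the lower edge of the inner band (medians -0.36 and -0.30).

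Under BRAFi, the PD-L2 and control groups overlapped for every member, although the direction was the same. All 41 again averaged lower in PD-L2 tumors, with a median log2 fold change of -0.95 (range -1.44 to -0.15); the median of all genes was -0.01 and 51.7% were below 0. The BRAFi and vehicle comparisons share no library, and 30% of all genes were lower in both. In limma 0 of 41 members passed the adjusted threshold, which 0.0743% of genes passed, and 2 members, Herc6 and Iigp1, had an unadjusted p under 0.05, against 7.06% of genes. None of the 41 separated the groups, against 4.78% of all genes that lay lower in PD-L2 tumors without overlap.

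PD-L2 BRAFi tumor 1 was high and control BRAFi tumor 2 low for most members. Herc6, with the smallest p, had 3.91, 2.18 and 1.38 FPKM in PD-L2 BRAFi tumors, against 11.7, 2.31 and 5.45 FPKM in control BRAFi tumors. PD-L2 tumor 1 lay above control tumor 2, which was nearly as low as PD-L2 tumor 2. The log2 fold change was -0.95 ± 0.41 (limma, adjusted p = 0.679). Iigp1 had 20.6, 7.50 and 4.33 FPKM in PD-L2 BRAFi tumors, against 64.8, 9.45 and 27.2 FPKM in control BRAFi tumors, a log2 fold change of -1.44 ± 0.63 (limma, adjusted p = 0.694). Eif2ak2 and Oas1a gave -0.60 ± 0.28 and -1.23 ± 0.62. Irf1 averaged 22.3 ± 7.38 FPKM in PD-L2 BRAFi tumors and 24.8 ± 8.29 FPKM in control BRAFi tumors (SD, n = 3 each), with a log2 fold change of -0.15 ± 0.27.

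Single tumors moved these values. The member median was -1.58 without control BRAFi tumor 2 and -0.29 without control BRAFi tumor 1, and 16 members lay lower in PD-L2 tumors without overlap with control BRAFi tumor 2 left out (10.2% of all genes), as did 10 with PD-L2 BRAFi tumor 1 left out (7.11%). The markers of red blood cells, 3 genes, summed to 147 to 238 FPKM in the PD-L2 BRAFi group, against 27.9 to 39.5 FPKM in the control BRAFi group, and 2 of the 3 passed in limma, against 0.0743% of all genes; their part in the member values was not tested. Averaged over both treatments, the PD-L2 comparison gave a member median of -0.98; 0 of 41 passed in limma, against 0.099% of genes, and 19 of 41 had an unadjusted p under 0.05, all lower, against 6.02% of genes in that direction. Iigp1 (-1.53 ± 0.45) and Herc6 (-0.92 ± 0.29) had the smallest adjusted p there, 0.216 and 0.235 in limma.

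BRAFi against vehicle gave smaller and less uniform differences. In control tumors, 40 of 41 members had a log2 fold change below 0, with a median of -0.36 and a range of -1.37 to 0.16, against a median of 0.02 and 48.5% below 0 for all genes. In PD-L2 tumors, 34 of 41 were below 0, with a median of -0.30 and a range of -1.10 to 0.17, against 0.01 and 48.9%. These signs rest on means of log2 values, and group means of FPKM did not all go the same way. In control tumors the BRAFi to vehicle ratio of FPKM means was 1.29 for Ifit1 and 1.22 for Iigp1. It was 0.428 for Ifi27l2a and 0.618 for Bst2. No member passed in limma in either comparison, where 7.42% and 0.239% of genes passed, and no member had an unadjusted p under 0.05, against 31.8% and 21.3% of genes. The number of members that were lower under BRAFi without overlap was 1 in control tumors (Ifi27l2a; 17% of genes) and 0 in PD-L2 tumors (14.3% of genes). The member medians turned on single tumors. In control tumors the median was 0.34 without BRAFi tumor 2 and -1.02 without BRAFi tumor 1. In PD-L2 tumors it was 0.10 without BRAFi tumor 3 and -0.76 without BRAFi tumor 1.

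Ifi27l2a had the most negative log2 fold change with BRAFi in both backgrounds. It had 121, 47.0 and 23.0 FPKM in PD-L2 BRAFi tumors, against 199, 158 and 42.6 FPKM in PD-L2 vehicle tumors. In control tumors it had 255, 83.8 and 102 FPKM under BRAFi, against 440, 304 and 287 FPKM under vehicle. Every control BRAFi tumor lay below every control vehicle tumor, even tumor 1, in which most other members peaked. The log2 fold changes were -1.10 ± 0.68 in PD-L2 tumors and -1.37 ± 0.68 in control tumors (limma, adjusted p = 0.374 and 0.192). Fold changes with BRAFi followed transcript length over the 12039 tested genes that had one, with a Spearman correlation of 0.413 in PD-L2 and 0.456 in control tumors, a description across genes that share these libraries. After this trend was removed, Ifi27l2a gave -0.84 in PD-L2 and -0.91 in control tumors (limma, adjusted p = 0.536 and 0.404), its control groups overlapped, and Irf7 also gave -0.91 in control tumors. Over both backgrounds the BRAFi average was -1.24 ± 0.48 (limma, adjusted p = 0.0821); 0 of 41 members passed there, against 24.7% of genes, and 1, Ifi27l2a, had an unadjusted p under 0.05, against 40.3% of genes. It passed without PD-L2 vehicle tumor 3 (-1.57, adjusted p = 0.0303 in limma) and without PD-L2 BRAFi tumor 1 (-1.54, adjusted p = 0.0409), and its adjusted p over all 22 alternatives was 0.0181 to 0.218.

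Each member was centered on its own mean over all tumors and then set against the median of the other centered members in the same tumor. This relative level compares tumors and does not rank a gene's abundance among the members. For Ifi27l2a it averaged -0.69 in PD-L2 BRAFi tumors, 0.13 in PD-L2 vehicle tumors, -0.28 in control BRAFi tumors and 0.74 in control vehicle tumors (log2 scale). The BRAFi minus vehicle difference of this relative level was -0.92, the most negative of the 41. Eif2ak2 stood at the other end with 0.49. Nearly the same median was taken from every member, so these ranks restate the BRAFi fold changes and are not a second result. After removal of the length trend the BRAFi average was -0.87 for Ifi27l2a and -0.75 for Irf7. Control BRAFi tumor 2 and PD-L2 vehicle tumor 3 went against the lower relative level of Ifi27l2a under BRAFi, at 0.41 and -0.82.

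Bst2 and Ifi35, an interferon-induced leucine zipper protein gene, had the smallest p-values after Ifi27l2a in both BRAFi comparisons, though Oas1a, for one, had larger fold changes than Ifi35. Bst2 had 201, 88.3 and 42.7 FPKM in PD-L2 BRAFi tumors, against 205, 161 and 112 FPKM in PD-L2 vehicle tumors. In control tumors Bst2 had 305, 49.8 and 162 FPKM under BRAFi, against 371, 210 and 254 FPKM under vehicle. Both pairs of groups overlapped, at log2 fold changes of -0.75 ± 0.65 in PD-L2 and -1.0 ± 0.65 in control tumors (limma, adjusted p = 0.520 and 0.307). They were -0.51 and -0.59 after removal of the length trend. Ifi35 gave -0.48 ± 0.44 in PD-L2 and -0.67 ± 0.44 in control tumors (limma, adjusted p = 0.551 and 0.312); without control BRAFi tumor 1 its BRAFi average was -0.85 (adjusted p = 0.0284 in limma, within 0.0284 to 0.442 over the alternatives), against -0.57 (adjusted p = 0.193) with all tumors. After removal of that trend Ifi35 gave -0.28 in PD-L2 and -0.39 in control tumors. Oas1a gave -0.58 ± 0.62 in PD-L2 tumors and Irf9 gave -0.58 ± 0.46 in control tumors.

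The BRAFi response was compared between PD-L2 and control tumors by an interaction term (PD-L2 minus control). The member median was 0.12, with 31 of 41 above 0, against a median of -0.01 and 48.4% above 0 for all genes. None of the 41 passed in limma, against 0.0165% of genes, and none had an unadjusted p under 0.05, against 4.47% of genes. The smallest p-values belonged to Rtp4 (0.55 ± 0.85), Irf1 (0.24 ± 0.39), Irf9 (0.39 ± 0.65) and Samd9l, a cytoplasmic antiviral factor gene (0.26 ± 0.60), each with a limma adjusted p of 0.965 or higher. The median ran from -0.55 without control BRAFi tumor 2 to 0.75 without control BRAFi tumor 1, and was also negative without PD-L2 BRAFi tumor 1 (-0.36) and PD-L2 vehicle tumor 3 (-0.12).

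Interferons, their receptors and the JAK-STAT proteins act upstream of the members. The interferons themselves were at the bottom of the scale: none of 16 ligand genes reached the filter, 11 of them were listed at 0 in all 12 libraries, including Ifng, and Ifnb1 ran from 0 to 0.264 FPKM. An exact 0 in such a table can be a failed estimate. Of the receptors, Ifnar1 ran from 14.7 to 22.3 FPKM and Ifngr1 from 24.2 to 71.0 FPKM over the 12 tumors. Of the 5 receptor genes tested, 0 passed in any of the 7 comparisons in limma, and the summed level of the 6 in the table was 174 to 264 FPKM. The sixth, the interferon lambda receptor gene Ifnlr1, did not reach the filter and ran from 0 to 0.107 FPKM.

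Of 4 JAK-STAT genes (Jak1, Jak2, Tyk2 and Stat3), none passed in a PD-L2 comparison. Jak1 stayed between 49.2 and 80.4 FPKM. Jak2, the kinase of the interferon gamma receptor, rose with BRAFi in control tumors and on average: it had 12.4, 13.5 and 13.6 FPKM in PD-L2 BRAFi tumors against 9.34, 10.4 and 10.4 FPKM in PD-L2 vehicle tumors, and 16.8, 14.8 and 17.3 FPKM in control BRAFi tumors against 8.41, 10.9 and 12.9 FPKM in control vehicle tumors. The BRAFi tumors lay above the vehicle tumors in control tumors, and in PD-L2 tumors too. Its log2 fold change was 0.57 ± 0.13 in control tumors (limma, adjusted p = 0.0396; past the threshold in 10 of 23 alternatives, and 0.40 with an adjusted p of 0.0804 after removal of the length trend), 0.36 ± 0.13 in PD-L2 tumors (adjusted p = 0.175) and 0.47 ± 0.09 for the BRAFi average (adjusted p = 0.0113; past it in 22 of 22).

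Of 13 genes of nucleic acid sensing and interferon induction, 2 passed, both in the BRAFi average, which 24.7% of all genes passed. Aim2, a cytosolic DNA sensor of inflammasomes, averaged 6.28 ± 3.07 FPKM in PD-L2 BRAFi tumors against 2.30 ± 0.448 FPKM in PD-L2 vehicle tumors, and 15.7 ± 6.84 FPKM in control BRAFi tumors against 5.07 ± 2.42 FPKM in control vehicle tumors (SD, n = 3 each). The BRAFi average of Aim2 was 1.24 ± 0.29 (limma, adjusted p = 0.0158). Traf3, an adaptor upstream of IRF3, gave 0.26 ± 0.08 (limma, adjusted p = 0.0401; 0.0174 to 0.951 over 22 alternatives, past the threshold in 8), and this value was -0.01 once a trend with transcript length was removed. None of the 4 other IRF genes tested and none of 8 negative regulators passed in any of the 7 comparisons in limma.

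Macrophage markers were measured beside the members, because host macrophages also express interferon-stimulated genes. Fewer cells of a type and less RNA per cell cannot be told apart in bulk tumors. The 11 markers summed to 891, 1400 and 402 FPKM in the PD-L2 BRAFi group and 1810, 1660 and 815 FPKM in the PD-L2 vehicle group. They summed to 1160, 585 and 1060 FPKM in control BRAFi tumors and 2700, 1960 and 1680 FPKM in control vehicle tumors. Under vehicle, all 11 markers averaged lower in PD-L2 tumors, with a median log2 fold change of -0.74, 0 of 11 passing in limma, and 5 of 11 lower without overlap, against 10.5% of all genes. Under BRAFi the PD-L2 comparison gave a median of -0.32 with 0 of 11 lower without overlap (4.78% of genes). BRAFi against vehicle gave -0.47 in PD-L2 tumors, with 1 of 11 lower without overlap (14.3% of genes), and -0.86 in control tumors, with 7 of 11 (17% of genes). Over both backgrounds 2 of 11 markers passed with BRAFi, against 24.7% of all genes: Lyz2 fell by 1.65 ± 0.41 and Cd68 fell by 0.70 ± 0.20 on the log2 scale (limma, adjusted p = 0.0192 and 0.0310). Of the 11, 10 averaged lower with BRAFi and 1, Itgam, averaged higher (0.16 ± 0.31). No value with the length trend removed is given for these markers. The marker sum and the member sum were both lowest in tumor 3 of the PD-L2 groups and in tumor 2 of the control BRAFi group. They parted in PD-L2 BRAFi tumor 2, which had the highest marker sum of the 6 BRAFi tumors and a member sum of 430 FPKM, and in control BRAFi tumor 1, which had the highest member sum of all and a marker sum below every control vehicle tumor. The part of macrophages in the member differences was not tested.

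**Figure D4:**
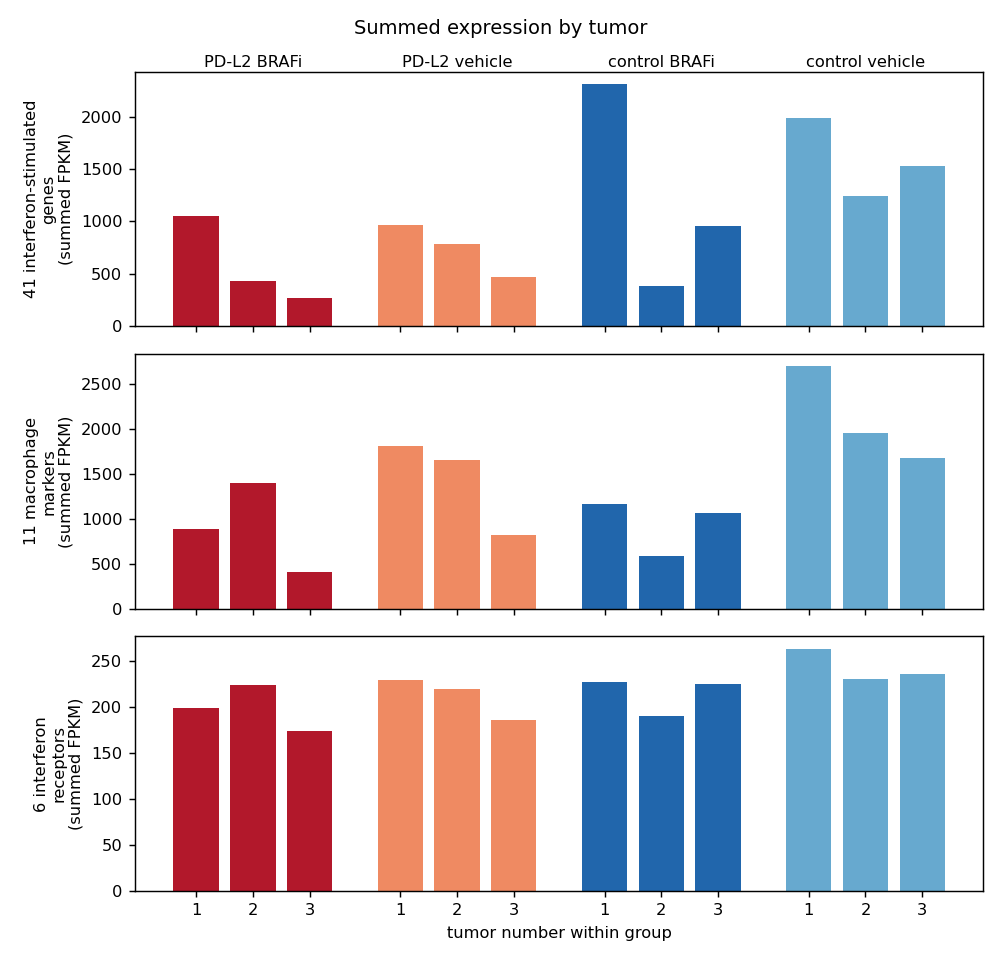
Bars are summed FPKM per tumor for the 41 members (top), 11 macrophage markers (middle) and 6 interferon receptor genes (bottom), with tumors numbered within groups. The member sum runs from 265 to 2310 FPKM and the receptor sum from 174 to 264 FPKM.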

How the data were processed

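Messenger RNA was measured in 12 tumors. Per the labels, libraries were made after poly(A) selection with an unstranded TruSeq kit; the labels give paired-end and the design text single-end reads. The authors deposited 1 FPKM table. The submitters' processing notes list TopHat, TopHat2, Cuffnorm and Cuffdiff and the build mm9; versions, roles and annotation were not stated there. The table holds no counts, so depth is unknown and no counting interval is given. Reads of overlapping genes, and of near-identical relatives such as the Oas, Ifit, Gbp and Irgm families, may be shared between genes.

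Values were taken as log2(FPKM + 1), and 12117 genes averaging 1 FPKM or more were kept. On this scale a fold change understates the change of low genes. Group means were fitted jointly with limma 3.58.1 (R 4.3.3), moderating variances along an intensity trend, and 7 comparisons were drawn: BRAFi against vehicle in each background, PD-L2 against control under each treatment, both averages and the interaction. P-values are two-sided and Benjamini-Hochberg adjusted over all tested genes, with a threshold of 0.05. "Separated" or "without overlap" means that every tumor of one group lay below every tumor of the other.

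The members and lists were chosen with earlier results of these data known. Named genes are the members past the threshold (none), the 4 with the smallest p in each simple comparison and the interaction, up to 3 per role, Irf1, Irf7, Irf9, Stat2 and Isg15, the pathway genes past the threshold, and Ifnb1, Ifng, Ifnar1, Ifngr1 and Jak1, besides 1 gene not reported here; any other member or gene named was picked after seeing its values. Alternatives were 2 other pseudocounts (0.1 and 0.5), no filter or a filter at 5 FPKM, a replicate block, fits to 2 groups, rescaling without small RNA genes, quantile normalization, removal of a length trend, no variance trend, and leaving out each tumor. Promoters were matched to RefSeq by symbol.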

Additional observations from a re-analysis of the deposited data

How the results depend on the processing

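Under 23 alternatives (22 for the averages and the interaction, which have no fit to 2 groups), the count of members past the threshold was 0 in each of the 4 simple comparisons, the interaction and the PD-L2 average. For the BRAFi average it was 1 with the replicate block (Ifi27l2a, -1.24, adjusted p = 0.0181 in limma), and 0 to 1 when a tumor was left out. Over all tested genes, same-numbered tumors correlated at -0.371 to 0.242 in their deviations from group means. With no value for differently numbered tumors beside it, this range cannot settle whether the numbers pair the samples. Among members, tumor 1 was the highest of its group for 40 (PD-L2 BRAFi), 36 (PD-L2 vehicle), 41 (control BRAFi) and 26 (control vehicle). For all genes these shares were 22.7, 30.8, 34 and 35.9%. The labels do not explain the numbers, and the block is not read as a batch. No other count of members past the threshold changed with the block.

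The count of members lower without overlap, recomputed under 9 settings chosen after seeing the data, was 39 to 40 for PD-L2 under vehicle (9.93 to 17.2% of all genes). For PD-L2 under BRAFi it was 1 after rescaling without small RNA genes (10.6% of all genes) and 0 to 16 with a tumor left out. For BRAFi in control tumors it was 0 with the length trend removed (15.9% of all genes) and 1 to 20 with a tumor left out (20 without BRAFi tumor 1, against 23.9%), and for BRAFi in PD-L2 tumors it was 0 to 21 (21 without BRAFi tumor 1, against 18.1%, and 1 without vehicle tumor 3, against 21.5%). Traf3 gave -0.01 with the length trend removed, with or without the replicate block. The member median stayed negative in both PD-L2 comparisons, at -1.20 to -0.79 under vehicle and -1.58 to -0.29 under BRAFi. Rescaling moved the median of all genes to 0.15 and 0.12 for BRAFi in control and PD-L2 tumors; it gave member medians of -0.22 and -0.20 there, and -1.09 and -1.05 for PD-L2 under vehicle and under BRAFi.

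With 3 tumors a group and a member spread of 1.11 under BRAFi and 0.363 under vehicle, the precision was limited. Read depth is unknown, so its part in this spread was not measured.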

Other observations

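Further members, chosen here after their values were seen, are given next. Gbp2, a guanylate-binding protein gene of the interferon gamma response, had 20.4, 17.9 and 11.4 FPKM in PD-L2 vehicle tumors, against 42.1, 23.5 and 37.3 FPKM in control vehicle tumors. Zbp1, a sensor of Z-form nucleic acid that can trigger cell death, had 19.0, 14.1 and 11.2 FPKM in PD-L2 vehicle tumors, against 42.1, 25.4 and 34.6 FPKM in control vehicle tumors. In both genes every PD-L2 vehicle tumor lay below every control vehicle tumor, though neither passed in limma (adjusted p = 0.601 for Gbp2 and 0.568 for Zbp1).

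Under BRAFi the groups overlapped. Gbp2 had 27.7, 8.90 and 5.32 FPKM in PD-L2 BRAFi tumors, against 61.2, 8.13 and 22.2 FPKM in control BRAFi tumors. Rsad2, which encodes viperin, had 7.83, 2.01 and 1.45 FPKM in PD-L2 BRAFi tumors, against 19.2, 1.95 and 9.72 FPKM in control BRAFi tumors. Ifit3 had 37.9, 7.86 and 6.78 FPKM in PD-L2 BRAFi tumors, against 104, 8.69 and 33.3 FPKM in control BRAFi tumors. In each of the 3 genes control BRAFi tumor 2 lay far below the other two of its group, close to PD-L2 BRAFi tumor 2.

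Isg20, an exonuclease gene, was the exception to the shared tumor order in control BRAFi tumors and 1 of the 3 exceptions in PD-L2 BRAFi tumors. It had 14.6, 4.71 and 8.27 FPKM in PD-L2 BRAFi tumors, 13.2, 13.8 and 6.93 FPKM in PD-L2 tumors under vehicle, 17.6, 8.05 and 7.20 FPKM in control BRAFi tumors, and 18.5, 13.2 and 13 FPKM in control vehicle tumors. Its log2 fold change for PD-L2 was -0.41 ± 0.41 under vehicle and -0.25 ± 0.41 under BRAFi (limma, adjusted p = 0.739 and 0.907).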
